A study of Mus musculus with 2 samples.

Results

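The photoreceptor ribbon synapse set held 30 genes, chosen by symbol for proteins of the ribbon, its calcium channel, the fusion machinery, the synaptic vesicles and the cleft. Each of the 30 had rows in the deposited table of 23356 gene symbols, 55 transcript rows in all, and each passed the minimum of 1 FPKM (fragments per kilobase of transcript, scaled to library size) in at least 1 library, as did 13280 genes of the whole table. The symbols were matched without regard to their values, but members and roles were chosen with earlier results of these data known.

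RNA came from dissected mouse retina at postnatal day 15, with 1 triple mutant library and 1 control library. The triple mutant carried homozygous floxed alleles of Dnmt1, Dnmt3a and Dnmt3b, the genes of the DNA methyltransferases, together with Rx-Cre, a Cre recombinase transgene driven by regulatory sequence of the retinal gene Rx. The control carried the same floxed alleles in homozygous form and no Rx-Cre. The strain label reads C57BL/7 for the mutant and C57BL/6 for the control, and the labels do not say how many animals went into a library. With 1 library a group there is no replicate check and no test between genotypes: each value compares the pair of libraries and not the genotypes in general. In such whole-retina RNA, fewer cells of a type and less RNA per cell cannot be told apart.

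A photoreceptor terminal releases glutamate continuously in the dark from vesicles tethered to the synaptic ribbon, a plate built mainly of RIBEYE. Calcium enters through an L-type channel held next to the ribbon, and SNARE proteins fuse the vesicles with the membrane. In the cleft, pikachurin and dystroglycan on the terminal face the dendrites of bipolar cells. Several of the 30 genes, such as Snap25, Vamp2, Syt1, Nsf and Syp, also serve the conventional synapses of other retinal neurons, and bipolar cell terminals hold ribbons as well.

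Each of the 3 targeted genes had less RNA in the mutant, and each was still detected there: Dnmt1 had 11.6 FPKM in the mutant and 21.7 in the control, Dnmt3a had 56.0 in the mutant and 87.4 in the control, and Dnmt3b had 0.827 in the mutant and 1.03 in the control. The labels do not say which exons are floxed, so reads from the rest of each gene cannot check the deletion. An FPKM of 1 stood for about 56.2 fragments per kb in the mutant library and 48.3 in the control library, as the spacing of low values showed. Ratios are log2 of mutant over control after adding 1 FPKM to each, which understates the ratio of low genes, and ranges in brackets are 95% intervals for counting error alone.

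The ribbon synapse genes lay slightly lower in the mutant library as a set, and the shift was unequal among roles. No member differed by a log2 ratio of 1 or more, the mark that 2.49% of all measured genes passed, 1.84% higher in the mutant and 0.648% lower. At a smaller mark, a log2 ratio of 0.32 in size, 8 of 30 members (26.7%) were lower in the mutant, against 11.3% of all measured genes, and 0 of 30 were higher, against 10.0%. The 8 were Rims1, Bsn, Pclo, Erc1, Unc13b and Erc2 of the active zone scaffold and Cabp4 and Cacna1f of the calcium channel complex. The log2 ratio was below 0 for 21 members (70.0%), against 50.0% of all genes. The median over the 30 was -0.15, where the median over all measured genes was 0.00 and their quartiles were -0.16 and 0.15. The count of 8 depended on the settings. It was 4 with a pseudocount of 5 FPKM, against 5.26% of all genes, 5 when the highest transcript of each gene stood alone, against 12.0%, and 3 in the second deposited table, against 8.78%. Measured from the median of genes of like transcript length, it was 4 of 30 (13.3%), against 10.5% of all genes, which is close to the background. The 3 that passed in the second table were Rims1, Bsn and Pclo, and the median over the 30 was -0.09 there. The median over all measured genes was 0.05 in that table, and neither the mark nor the medians were shifted for it. In the authors' deposited table, 0 of 52 member rows with status OK were called significant, where 69 of 19556 such rows (0.353%) were, and the lowest q-value of a member row was 0.832, for a Rims1 transcript.

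**Figure D1:**
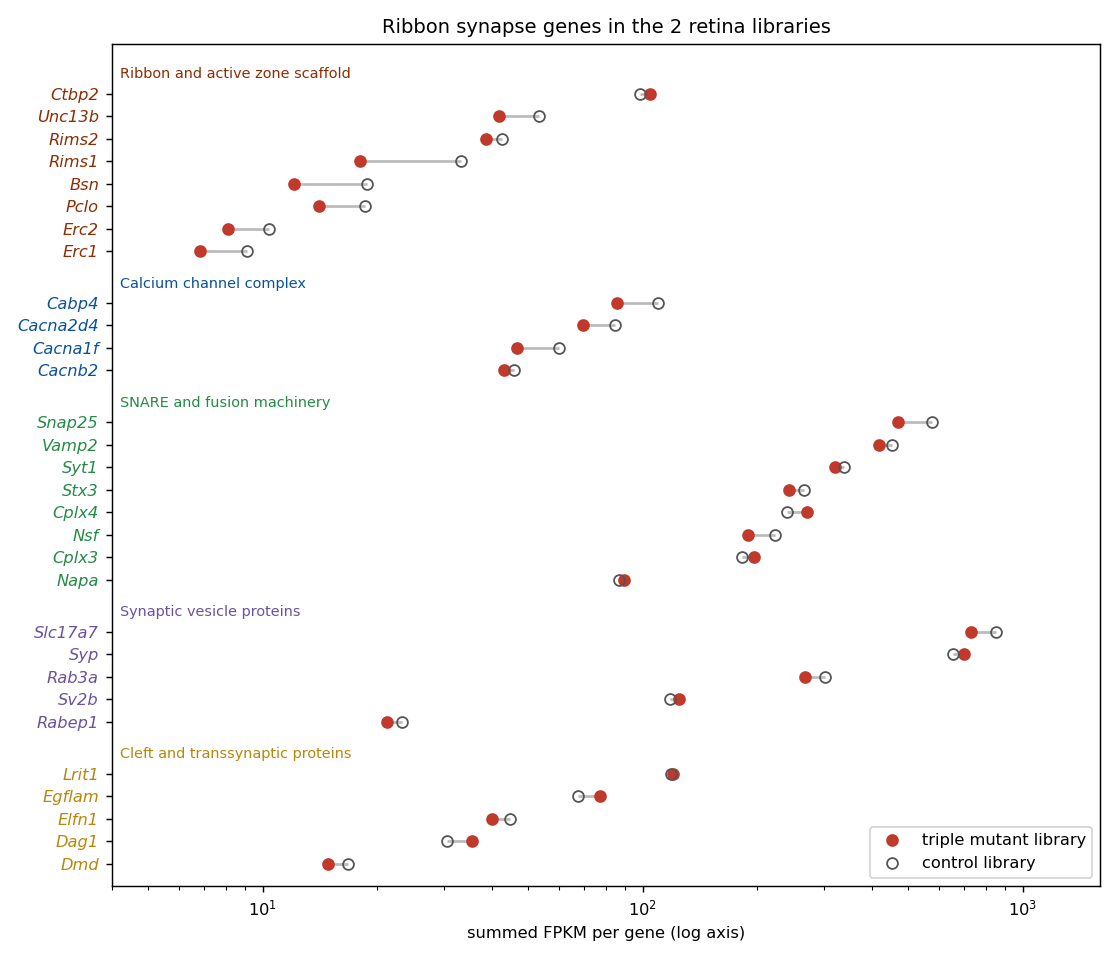
Summed FPKM of each of the 30 genes (log axis) in the triple mutant library (filled) and the control library (open), grouped by role. Levels run from 6.83 FPKM for Erc1 to 728 for Slc17a7 in the mutant and from 9.08 to 848 in the control for the same genes, so the members keep their broad order while every scaffold and channel gene except Ctbp2 sits to the left in the mutant.

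The ribbon itself and the scaffold around it went different ways. Ctbp2 (chromosome 7, 132987563 to 133124354, minus strand, GRCm38), which encodes RIBEYE, had 104 FPKM in the mutant library and 98.2 in the control (1.06-fold, 1.04 to 1.09). Ctbp2 was the 1 gene of the 8 scaffold genes that was not lower in the mutant. The other 7 had log2 ratios from -0.85 to -0.14, and the median over the 8 was -0.35. Relative to genes of like transcript length the median was -0.22, with 2 of 8 past the mark in place of 6. Over all genes the share past that mark was 10.5% relative to length and 11.3% otherwise.

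Ctbp2 makes a pair of proteins from separate start sites, and the deposited rows separate them. Transcript NM_001170744 has 988 codons before the stop in the annotation, the length of RIBEYE, and NM_009980 has 445, the length of the transcriptional corepressor CtBP2. The RIBEYE transcript had 77.7 FPKM in the mutant and 75.3 in the control, 103% of the control (ratio 1.01 to 1.06). The corepressor transcript had 26.7 FPKM in the mutant and 22.9 in the control, 117% of the control (ratio 1.11 to 1.23). RIBEYE thus made up 74.4% of Ctbp2 FPKM in the mutant and 76.7% in the control.

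Promoter sequence is shown for RIBEYE and for Lrit1, which lay close to equal in the libraries, because both hold TAATCC or its reverse complement GGATTA, the core letters bound by the photoreceptor factor CRX. It is shown for Rims1 and Bsn because they had the lowest ratios of the 30 and because CpG, the dinucleotide that the targeted enzymes methylate, is frequent there. Each run is the 250 bases before a RefSeq start (GRCm38.p6), 5′ to 3′ on the gene's strand, at chr7:133015248-133015497 (minus) for RIBEYE, chr14:37054580-37054829 (plus) for Lrit1, chr1:22806159-22806408 (minus) for Rims1 and chr9:108190384-108190633 (minus) for Bsn. Capitals mark the CRX core in the first pair and every CG in the second pair.
RIBEYE (Ctbp2): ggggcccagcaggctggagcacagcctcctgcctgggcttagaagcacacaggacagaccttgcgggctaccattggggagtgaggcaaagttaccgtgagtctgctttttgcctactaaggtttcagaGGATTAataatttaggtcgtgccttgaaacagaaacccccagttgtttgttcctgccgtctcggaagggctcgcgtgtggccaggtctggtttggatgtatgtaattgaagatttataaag
Lrit1: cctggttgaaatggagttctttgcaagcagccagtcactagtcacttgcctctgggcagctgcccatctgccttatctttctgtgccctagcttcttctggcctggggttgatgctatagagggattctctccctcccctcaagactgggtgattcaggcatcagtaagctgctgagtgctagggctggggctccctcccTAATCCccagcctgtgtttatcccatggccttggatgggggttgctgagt
Rims1: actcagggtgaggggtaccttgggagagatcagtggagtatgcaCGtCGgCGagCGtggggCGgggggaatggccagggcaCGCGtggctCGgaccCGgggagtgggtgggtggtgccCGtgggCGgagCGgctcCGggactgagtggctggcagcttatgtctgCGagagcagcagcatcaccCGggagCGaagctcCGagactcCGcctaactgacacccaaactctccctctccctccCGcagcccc
Bsn: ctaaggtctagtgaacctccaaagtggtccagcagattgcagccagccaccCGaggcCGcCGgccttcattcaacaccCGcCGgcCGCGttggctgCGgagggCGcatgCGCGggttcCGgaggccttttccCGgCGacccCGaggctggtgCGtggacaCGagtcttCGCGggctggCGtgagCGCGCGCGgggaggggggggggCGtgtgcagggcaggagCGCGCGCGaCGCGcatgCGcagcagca

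The core begins 121 bases before the RIBEYE start and 50 bases before the Lrit1 start. The promoter table held 33 windows for 23 of the 30 genes, from 250 bases before to 50 after a start. Of these windows 6 (18.2%), belonging to 5 genes, held TAATCC on either strand, against 7.06% of 32851 windows of the same length; the other 3 genes were Syp, Sv2b and Stx3. The printed runs hold 7 CG for RIBEYE, 0 for Lrit1, 19 for Rims1 and 32 for Bsn. Over the 300-base windows the members ran from 0 to 47 CG with a median of 14, against a median of 7 over all windows. A CpG-rich window was not limited to lower genes: Dag1, which was higher in the mutant, had 30 and 47 CG in its pair of windows. These matches describe letters only, and methylation was not measured in these files.

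Rims1 (chromosome 1, 22286251 to 22805994, minus strand) had the lowest ratio of the 30. It encodes RIM1, an active zone organiser that ties vesicles to calcium channels. Its summed level was 18.0 FPKM in the mutant and 33.2 in the control, 54.3% of the control. All 4 Rims1 rows were lower: NM_001012623 had 12.9 FPKM in the mutant and 25.1 in the control, and NM_001012624 had 4.04 in the mutant and 6.39 in the control. The rows lie on 2 separate stretches of the gene, so the sum is not 1 molecule's level, and no counting interval is given for it. Its relative Rims2, which encodes RIM2, had 38.7 FPKM in the mutant and 42.6 in the control (0.907-fold, 0.882 to 0.933). By these sums Rims2 was the more abundant of the pair in both libraries. The Rims2 sum includes NM_001256384, a short transcript of 285 codons, at 12.0 FPKM in the mutant and 11.2 in the control. The sums therefore do not rank the long transcripts of the 2 genes.

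Bassoon and piccolo are very large proteins that anchor the ribbon to the active zone. Bsn, on the minus strand of chromosome 9 from 108096022 to 108190384, had 12.1 FPKM in the mutant and 18.8 in the control (0.644-fold, 0.628 to 0.660). Pclo had 14.0 FPKM in the mutant and 18.6 in the control (0.754-fold, 0.736 to 0.772). Both Pclo transcripts were lower, NM_001110796 at 10.5 FPKM in the mutant and 13.1 in the control and NM_011995 at 3.55 in the mutant and 5.54 in the control.

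The ELKS family proteins ERC1 and ERC2 (also called CAST) bind RIM and bassoon in the cytomatrix. Erc1 had 6.83 FPKM in the mutant and 9.08 in the control (0.751-fold, 0.717 to 0.787), and Erc2 had 8.10 in the mutant and 10.4 in the control (0.780-fold, 0.740 to 0.822). Unc13b, which encodes the vesicle priming factor Munc13-2, had 41.8 FPKM in the mutant and 53.3 in the control (0.785-fold, 0.765 to 0.805). Erc2 lay just past the smaller mark at a log2 ratio of -0.32, and Snap25 lay just short of it at -0.30. The Unc13b difference was larger in 1 transcript, NM_001081413, with 17.4 FPKM in the mutant and 25.8 in the control, than in NM_021468, with 24.5 in the mutant and 27.5 in the control.

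All 4 calcium channel genes were lower in the mutant library, with a median of -0.32, or -0.26 in the second table. Cacna1f (chromosome X), which encodes the pore-forming subunit of the photoreceptor L-type channel, had 46.8 FPKM in the mutant and 60.2 in the control (0.777-fold, 0.760 to 0.794). Cacna2d4 encodes its extracellular auxiliary subunit and had 69.7 FPKM in the mutant and 84.7 in the control (0.823-fold, 0.808 to 0.838). Cabp4, whose calcium-binding product shifts the channel's activation to the voltages of a photoreceptor, had 85.4 FPKM in the mutant and 110 in the control (0.777-fold, 0.751 to 0.805). Cacna1f and Cabp4 thus stood at nearly the same ratio. Cabp4 exons overlap those of Gpr152 on the opposite strand (20.3 FPKM in the mutant and 23.4 in the control), and the use of strand in counting is not stated in the labels.

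Cacnb2, the gene of the intracellular beta subunit, differed less in sum, with 43.2 FPKM in the mutant and 45.8 in the control (0.943-fold, 0.905 to 0.983). Its transcripts went opposite ways. The coding transcript NM_001252533 was the larger part, with 38.9 FPKM in the mutant and 35.1 in the control. The noncoding transcript NR_045533 had 3.07 FPKM in the mutant and 10.2 in the control, 7.12% of the gene's FPKM in the mutant and 22.3% in the control. The highest transcript alone would therefore put Cacnb2 higher in the mutant, at a log2 ratio of 0.14.

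**Figure D2:**
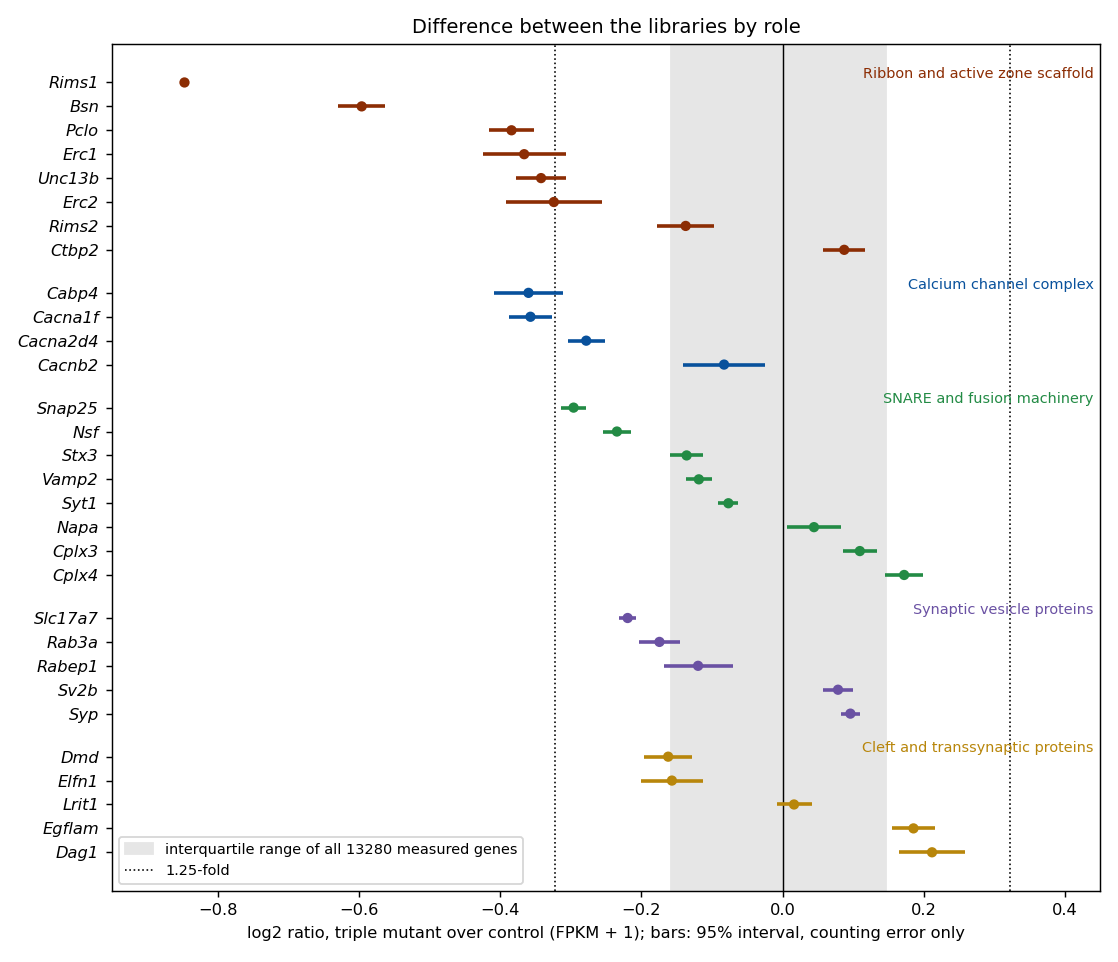
Log2 ratio of triple mutant over control for each of the 30 genes by role, with 95% intervals for counting error only (none for Rims1); the grey band is the interquartile range of all 13280 measured genes and dotted lines mark -0.32 and 0.32. Of 8 scaffold genes 6 lie left of the mark, as do 2 of 4 channel genes, while the fusion, vesicle and cleft genes lie between -0.30 and 0.21. Over all measured genes 11.3% lie left of -0.32 and 10.0% right of 0.32.

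The SNARE and fusion genes had a median of -0.10, or -0.04 in the second table. Of these, 0 of 8 passed 0.32 in size, where 11.3% of all measured genes were lower and 10.0% higher. Relative to genes of like transcript length 1 of 8 passed downward, Snap25 at -0.34, against 10.5% of all genes. The SNARE genes themselves were lower. Snap25 had 469 FPKM in the mutant and 576 in the control (0.814-fold, 0.804 to 0.824), the largest difference of this role. Vamp2, which encodes the vesicle SNARE synaptobrevin 2, had 418 FPKM in the mutant and 453 in the control (0.921-fold, 0.909 to 0.933). Stx3 encodes syntaxin 3, the syntaxin of ribbon terminals, and had 242 FPKM in the mutant and 266 in the control (0.910-fold, 0.895 to 0.924). Most Stx3 signal came from NM_001025307, at 68.6% of the gene in the mutant and 69.5% in the control.

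The complexins of ribbon synapses, membrane-anchored clamps that regulate SNARE assembly, were both higher. Cplx3 had 196 FPKM in the mutant and 182 in the control (1.08-fold, 1.06 to 1.10), and Cplx4 had 270 in the mutant and 239 in the control (1.13-fold, 1.11 to 1.15). Syt1, the calcium sensor of fusion, had 321 FPKM in the mutant and 339 in the control (0.948-fold, 0.939 to 0.957). Of its transcripts NM_009306 made up 88.8% in the mutant and 87.8% in the control, and the minor NM_001252342 had 11.1 FPKM in the mutant and 24.2 in the control.

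SNARE complexes are taken apart by NSF with its adaptor alpha-SNAP, and the pair was split. Nsf had 189 FPKM in the mutant and 223 in the control (0.849-fold, 0.837 to 0.861). Napa, the alpha-SNAP gene, had 89.4 FPKM in the mutant and 86.6 in the control (1.03-fold, 1.004 to 1.06).

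Synaptic vesicle genes included the most abundant of the 30. Of these, 0 of 5 passed 0.32 in size, where 11.3% of all measured genes were lower and 10.0% higher. The median over the 5 was -0.12. That median was -0.06 in the second table, -0.02 without Rab3a, whose rows did not all have status OK, and -0.03 relative to transcript length. Slc17a7 encodes the vesicular glutamate transporter of photoreceptors and bipolar cells, and had 728 FPKM in the mutant and 848 in the control (0.859-fold, 0.852 to 0.866). Syp, the synaptophysin gene, was higher, with 698 FPKM in the mutant and 653 in the control (1.07-fold, 1.06 to 1.08). The order of the top pair was the same in both libraries, although their gap was narrower in the mutant.

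Sv2b, which encodes a vesicle glycoprotein, had 125 FPKM in the mutant and 118 in the control (1.06-fold, 1.04 to 1.07). Rab3a, the gene of the small GTPase that links vesicles to RIM, had 267 FPKM in the mutant and 301 in the control (0.886-fold, 0.868 to 0.904). Rabep1, an effector of endosomal Rab5, had 21.3 FPKM in the mutant and 23.2 in the control (0.917-fold, 0.885 to 0.9504). Rab3a, Rabep1 and Sv2b each overlap exons of an expressed gene on the opposite strand: Mpv17l2, Nup88 and 1500012K07Rik.

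The cleft genes were the only role with a median above 0, at 0.02. Of these, 0 of 5 passed 0.32 in size, where 11.3% of all measured genes were lower and 10.0% higher. Without Dag1, whose rows did not all have status OK, the median was -0.07, and in the second table it was 0.08. Dag1 encodes dystroglycan and had the highest ratio of the 30 when its 8 rows were summed, with 35.4 FPKM in the mutant and 30.5 in the control (1.16-fold, 1.13 to 1.20). Egflam encodes pikachurin, the secreted ligand of dystroglycan at this cleft, and had 77.0 FPKM in the mutant and 67.6 in the control (1.14-fold, 1.12 to 1.16). The main Dag1 transcript alone, NM_001276482, had 17.0 FPKM in the mutant and 15.9 in the control, a log2 ratio of 0.09, which is below those of Egflam (0.19) and Cplx4 (0.17). Dmd, the gene of dystrophin on the cytoplasmic side of dystroglycan, had 14.8 FPKM in the mutant and 16.7 in the control (0.887-fold, 0.865 to 0.910), estimated on a single transcript model of 14910 bases that does not represent the shorter dystrophins.

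The leucine-rich repeat proteins LRIT1 and ELFN1 sit on the photoreceptor terminal, where ELFN1 contacts the glutamate receptor of ON bipolar cells. Lrit1 had 120 FPKM in the mutant and 118 in the control (1.01-fold, 0.994 to 1.03), an interval that included a ratio of 1. These intervals cover counting error alone and are narrow for abundant genes. An interval that leaves out 1 therefore does not mark a difference between genotypes. Elfn1 had 40.0 FPKM in the mutant and 44.7 in the control (0.895-fold, 0.867 to 0.923).

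**Figure D3:**
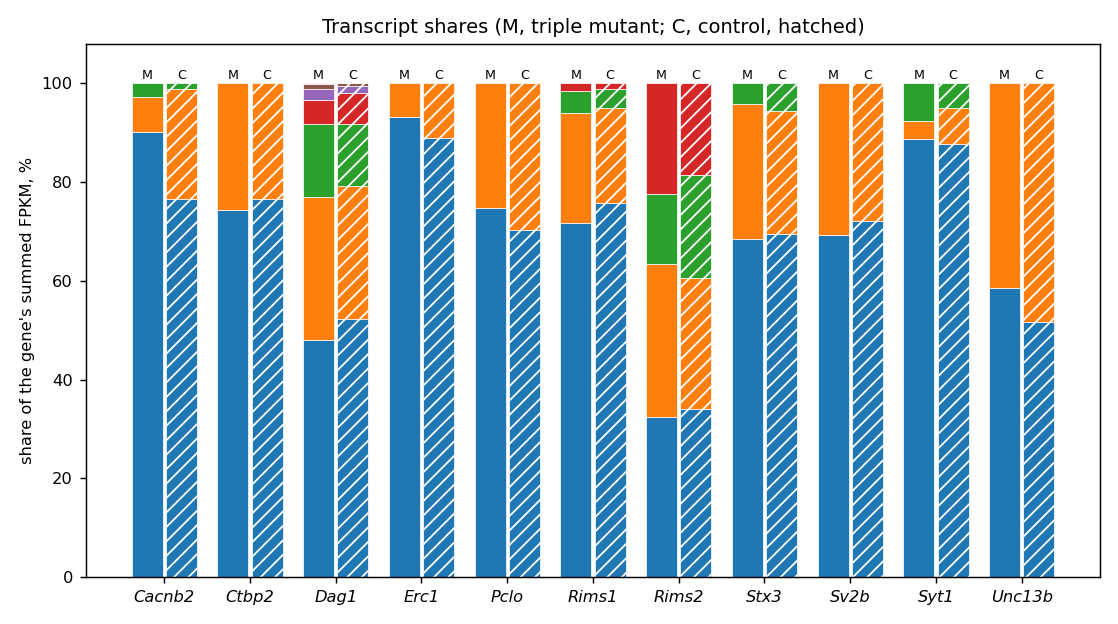
Share of each transcript in its gene's summed FPKM, in percent, for the 11 genes with more than 1 transcript above 0, triple mutant left and control (hatched) right in each pair; colours separate transcripts within a gene. The largest difference in share (mutant minus control) was under 5 points in 8 of these genes, -6.77 points in Rims2, -6.94 in Unc13b and -15.2 in Cacnb2.

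Close relatives outside the set are given beside the members. Some, such as Cplx1 and Slc17a6, are known from conventional synapses, but the relatives were not chosen by cell type or kind of synapse. The grouping into 19 families was made after the values were seen. Each relative was taken from lists written earlier, which were also chosen with earlier results of these data known. Of 38 measured relatives, 19 were lower by a log2 ratio of at least 0.32 and 0 were higher, and their median was -0.33. Over all measured genes 11.3% were lower and 10.0% higher by that mark. Of the 21 ribbon synapse genes in those families 4 passed that mark downward and 0 upward, and their median was -0.14. Whether these shares differ was not tested.

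Among complexins, Cplx1 had 56.9 FPKM in the mutant and 95.2 in the control (ratio 0.579 to 0.617), and Cplx2 had 64.7 in the mutant and 83.1 in the control, while the members Cplx3 and Cplx4 were higher. Vamp1 had 16.4 FPKM in the mutant and 32.9 in the control, beside Vamp2 at a log2 ratio of -0.12. Sv2c, at 3.23 FPKM in the mutant and 7.58 in the control, was the 1 relative past a log2 ratio of 1, while Sv2b was at 0.08. The transporter of ganglion cells, Slc17a6, had 16.2 FPKM in the mutant and 27.7 in the control, beside Slc17a7 at -0.22, and the transporter Slc17a8 went the other way, with 7.63 in the mutant and 6.62 in the control.

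The pattern did not hold in every family. Among RIM genes the member Rims1 (-0.85) lay between its relatives Rims3 (8.32 FPKM in the mutant and 17.1 in the control, -0.96) and Rims4 (11.4 in the mutant and 19.2 in the control, -0.70), while Rims2 lay above both. Cabp4 (-0.36) was lower than Cabp5 (0.20) and Cabp2 (0.29), which are known from bipolar cells. Cacna1f (-0.36) lay between Cacna1a (-0.63) and Cacna1d (-0.07), and Snap25 (-0.30) lay below Snap23 (0.15).

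**Figure D4:**
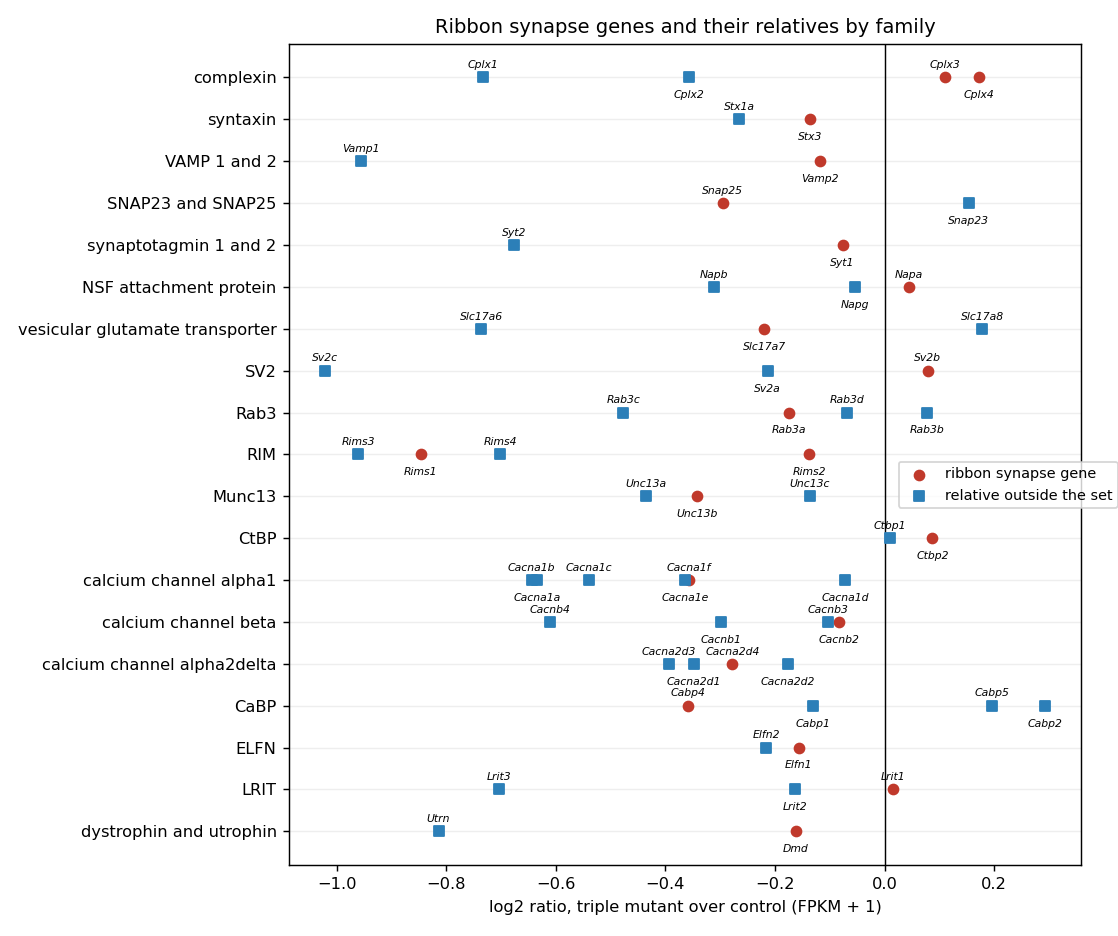
Log2 ratio of triple mutant over control for ribbon synapse genes (circles) and their relatives (squares), 1 row a family. Members lie right of every relative for the complexin, syntaxin, VAMP, synaptotagmin and SV2 genes plotted, while Rims1, Cabp4 and Snap25 each have at least 1 relative to their right.

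Marker lists of the cells that carry these synapses are given beside the members. Ganglion cell markers had ratios below 0 in 8 of 8, with a summed level of 640 FPKM in the mutant and 964 in the control, and so did amacrine markers in 8 of 8 (409 FPKM in the mutant and 490 in the control). Cone markers were below 0 in 8 of 8 (439 FPKM in the mutant and 962 in the control). Rod markers were below 0 in 3 of the 7 used here (10052 FPKM in the mutant and 11031 in the control), and bipolar markers were above 0 in 8 of 8 (973 FPKM in the mutant and 721 in the control). Horizontal cell markers were below 0 in 4 of 6 (289 FPKM in the mutant and 326 in the control), and Mueller glia markers were above 0 in 5 of 6 (2404 FPKM in the mutant and 2299 in the control). Microglia markers were above 0 in 7 of 7 (115 FPKM in the mutant and 26.0 in the control). Lens markers, below 0 in all 4 measured, summed to 0.647 FPKM in the mutant and 135 in the control, and pigment epithelium markers, below 0 in 6 of 6, to 3.32 in the mutant and 49.9 in the control. The lens gene Lim2 was listed at 0 in the mutant. The part of these differences in the members' ratios was not tested.

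Transcript length moved with the ratios over all genes. By length of the main transcript, the median log2 ratio was 0.11 under 1.5 kb (2121 genes), 0.04 from 1.5 to 3 kb (4484), -0.03 from 3 to 5 kb (3987), -0.09 from 5 to 8 kb (1885) and -0.18 from 8 kb up (634). The 8 scaffold genes ran from 3.60 kb for Ctbp2 to 16.8 kb for Pclo. The shortest pair, Ctbp2 and Rims2 (4.72 kb), was also the pair that did not pass the lower mark. The Rims2 model has 4716 coding bases in its 4719, so it holds almost no untranslated sequence, and its length class rests on that model. Against the median of their own length class, the scaffold median was -0.22, the channel median -0.22, the fusion median -0.10, the vesicle median -0.03 and the cleft median 0.04, and 20 of 30 members lay below their class. By this measure 4 members lay at least 0.32 below (10.5% of all genes did), namely Rims1 (-0.75), Cabp4 (-0.47), Bsn (-0.42) and Snap25 (-0.34). Pclo (-0.21), Erc1 (-0.19), Unc13b (-0.25), Erc2 (-0.23) and Cacna1f (-0.26) no longer passed, and Dmd, of 14.9 kb, lay at its class median (0.01). The part of length in the members' ratios was not tested.

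**Figure D5:**
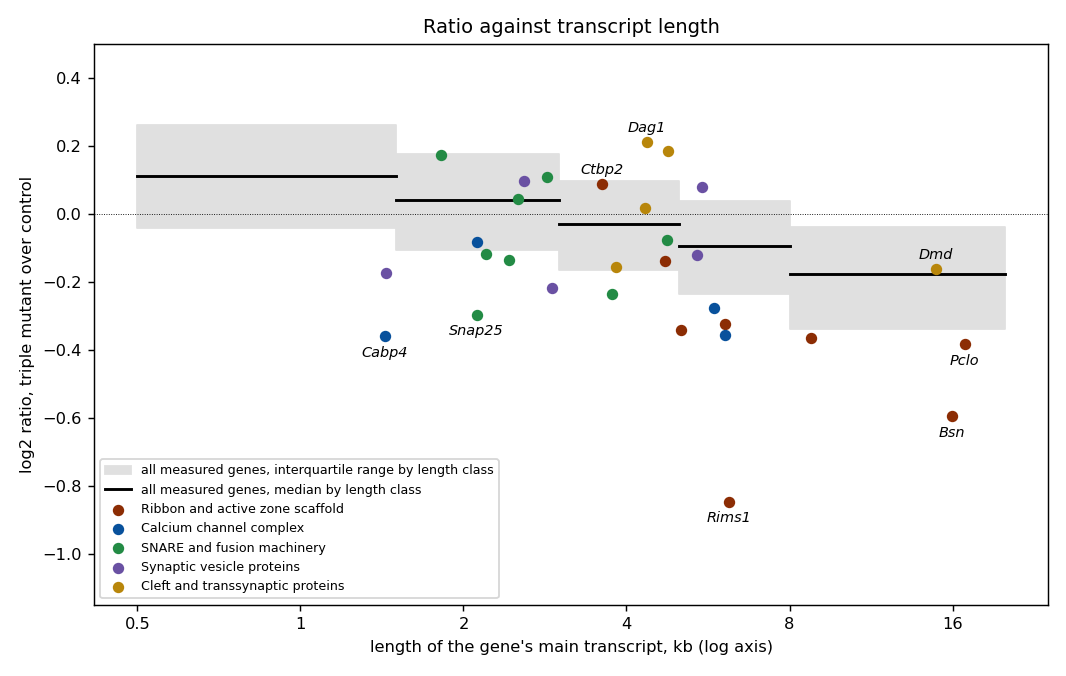
Log2 ratio of triple mutant over control against main transcript length (kb, log axis; the outer classes are drawn to 0.5 and 20 kb); black lines are medians and grey boxes the interquartile range of all measured genes by length class, and dots are the 30 genes by role. Rims1 and Bsn lie far under their class, Cabp4 is a short transcript far under its class, and Dag1 lies above its class.

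Lists of related genes, chosen by role, are described by the same mark of 0.32, which 11.3% of all measured genes passed downward and 10.0% upward. Of 14 measured paralogs and partners of scaffold genes, 7 were lower and 0 higher (median -0.30), from Rims3 and Rims4 to Ctbp1 (0.01) and Unc119 (0.02), a RIBEYE-binding protein. Of 14 other channel subunits and regulators, 7 were lower and 0 higher (median -0.32), from Cacna1b (-0.64) and Cacna1a to Cabp5 and Cabp2. Of 26 other SNARE and fusion genes, 6 were lower and 0 higher (median -0.14), from Vamp1 (-0.96) and Cplx1 (-0.73) to Snap23 and Vamp3, which lay just short of the mark. Of 20 other vesicle genes, 7 were lower and 0 higher (median -0.17), from Sv2c (-1.02) and Slc17a6 (-0.74) to Sypl (0.12) and Slc17a8 (0.18).

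The neighbours of the cleft proteins split. Of 21 measured genes of the dystrophin complex and dystroglycan glycosylation, 4 were lower and 2 higher (median -0.08). Agrn, whose product agrin is a ligand of dystroglycan like pikachurin, was the highest, with 58.7 FPKM in the mutant and 32.4 in the control (1.81-fold, 1.77 to 1.86), followed by the syntrophin gene Sntb1 (18.7 in the mutant and 13.8 in the control). Utrn, the dystrophin relative, had 4.63 FPKM in the mutant and 8.90 in the control, and Sntb2 had 13.2 in the mutant and 18.7 in the control.

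Of 18 genes listed as postsynaptic partners, 4 were lower and 1 higher (median -0.18). Whole-retina RNA does not show which cells the RNA of these genes came from, photoreceptors included. Lrit3, a partner of Lrit1 by family, had 24.5 FPKM in the mutant and 40.5 in the control, and Rgs9bp had 84.6 in the mutant and 131 in the control, while Gnb3 had 347 in the mutant and 218 in the control and Gpr179 had 39.1 in the mutant and 35.4 in the control. Of 19 endocytosis genes 2 were lower (10.5%, close to the share over all genes) and 0 higher, with a median of -0.08. The 2 were Dnm3 (-0.63) and Synj1 (-0.40), and Ap2m1 and Ap2s1 were highest at 0.14 each. Of 10 genes listed for ion transport 3 were lower and 0 higher (median -0.07). Among those of at least 5 FPKM, Atp2b2 (-0.59) and Slc24a1 (-0.52) were lowest and Atp2b1 (0.10) and Ano2 (0.02) highest. RNA levels do not place the product of any of them, such as Slc24a1, at the terminal.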

How the data were processed

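Total RNA of dissected mouse retinas was sequenced by a commercial provider, per the labels' protocols. Alignment to mm10 used TopHat2 2.0.8 and comparison Cuffdiff 2.1.1, per the submitters' processing notes; no label names an annotation or a strand setting. Per the file headers, 2 tables give FPKM for each RefSeq transcript and hold, too, the authors' log2 fold change, test score, p-value and q-value. In the table that names symbols, the authors' FPKM values were added up over all rows of a gene, for genes with at least 1 row of status OK and none failed. The planned no-test design was kept: sizes, counts past log2 ratios of 1 and 0.32 in size, and medians were described beside all measured genes. Members, lists and roles were chosen with earlier results of these data known; all 30 members are named, and of each list the 2 highest and 2 lowest genes of at least 5 FPKM.

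Depth came from 226 low values in the mutant and 229 in the control, of long single-transcript genes: 71.7% and 75.5% were whole multiples of 1 step within 10% of it, for a fragment length of 150 bases. Intervals are exact (Clopper-Pearson) on fragments so recovered, at the main transcript's length. Lengths are from GENCODE M21 (GRCm38, which mm10 denotes) through its RefSeq links and cover 98.7% of measured genes; promoters are RefSeq's. Gene coordinates are GENCODE's. Calculations used Python 3.11.15, pandas 2.3.3 and scipy 1.17.1, tested on simulated data. Some genes of the lists are not reported by name here.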

Additional observations from a re-analysis of the deposited data

How the results depend on the processing

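Over 11 alternatives, 28 of 30 members kept the sign of their log2 ratio where they had a value; the exceptions were Cacnb2, at 0.14 with the highest transcript alone, and Dmd, at 0.0137 relative to its length class. The second table, whose median over all genes was 0.05 higher, moved the medians to -0.0899 over all members, -0.30 for the scaffold, -0.26 for the channel, -0.0369 for fusion, -0.0602 for vesicle and 0.0766 for cleft genes. The scaffold median was -0.28 with a pseudocount of 5 FPKM and -0.30 with the highest transcript alone. With all transcripts of status OK the vesicle median was -0.0206 (without Rab3a) and the cleft median -0.0703 (without Dag1). Relative to length class, an alternative chosen after seeing the data, the medians were -0.22 (scaffold), -0.22 (channel), -0.0251 (vesicle) and 0.0448 (cleft). The count of lower members, 8, was 4 with a pseudocount of 5, 3 in the second table, 5 with the highest transcript alone and 4 relative to length class; the cause was not tested. The other counts of members stayed within 1.5 times. No paired analysis was possible because there was 1 library per group. Counting intervals, given for 29 members and not for Rims1, do not cover differences between animals.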
